A study of Mus musculus with 4 samples.

Results

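The 9 genes described here encode organic anion and cation transporters of the kidney: Slc22a2, Slc22a6, Slc22a7, Slc22a8, Slc22a12, Slc22a18, Slc22a19, Slc22a30 and Slc47a1. They were chosen by name from the 54532 genes in the count files, and all 9 were present and passed the filter on low counts. The kidneys came from female C57BL/6J mice that received 500 µL of pristane, an oil used to provoke a lupus-like disease, by intraperitoneal injection when 8 weeks old, and were taken 8 months later. WT mice were compared with ZBP1-KO mice, with 2 libraries per genotype, to ask how loss of the nucleic acid sensor Zbp1 alters the diseased kidney. ZBP1-KO mice carry a germline CRISPR-Cas9 deletion that runs from exon 2 to exon 8 of Zbp1, in all cell types. Both genotypes had received pristane, and kidneys without it were not analysed here.

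The proximal tubule clears organic ions from blood into urine in consecutive steps. Transporters of the Slc22 family on the basolateral, blood-facing membrane take up anions in exchange for intracellular dicarboxylates, or take up cations along the membrane potential. Exchangers and pumps on the apical, urine-facing membrane then release them, and the apical urate exchanger works in the opposite direction and recovers urate. In rodents the levels of several of these transporters depend on sex hormones.

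In these kidneys none of the 9 transporters passed the test for a difference between genotypes, given the spread between libraries. Slc22a6 (OAT1, basolateral anion uptake) lay lower and Slc22a2 (OCT2, basolateral cation uptake) higher in both ZBP1-KO libraries than in both WT libraries, without passing the test. Such a separation of the groups was common, seen in 32.3% of all tested genes. For several genes the replicates of a genotype differed by more than the genotypes did. The library ZBP1-KO 1 had more Slc22a7, Slc22a19 and Slc22a30 than ZBP1-KO 2, and less Slc22a8, Slc22a18 and Slc47a1.

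Of the 9 genes, 5 lie on chromosome 19, which holds 10 genes of the Slc22 family. Positions are those of GENCODE M21 on GRCm38, the build that the submitters' processing notes call mm10. Slc22a8 and Slc22a6 are neighbours on the plus strand, with 6203 bases between them, and Slc22a19 and Slc22a30 lie on the minus strand at either end of a run that also holds Slc22a26, Slc22a27, Slc22a28 and Slc22a29. The promoters of Slc22a6, Slc22a8, Slc22a19 and Slc22a30 are shown because these 4 genes are part of the family's gene cluster. A further reason is that neighbours among them differed in their profiles over the libraries, as described further on. Each stretch is 300 bases from RefSeq (GRCm38.p6), from 250 bases before the transcription start to 50 bases after it, in the direction of the gene. Capitals mark letters that match CAAAGTCCA, a site of the nuclear receptor HNF4, with 1 mismatch allowed. HNF4 is a known regulator of proximal tubule genes.
Slc22a6 (chr19:8617746-8618045, plus strand): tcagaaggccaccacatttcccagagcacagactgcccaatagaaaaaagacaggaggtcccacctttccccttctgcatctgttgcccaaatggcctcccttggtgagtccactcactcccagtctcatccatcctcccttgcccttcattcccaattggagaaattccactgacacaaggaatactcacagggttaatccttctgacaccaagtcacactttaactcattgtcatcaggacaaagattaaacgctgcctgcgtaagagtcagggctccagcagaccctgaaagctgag
Slc22a8 (chr19:8592932-8593231, plus strand): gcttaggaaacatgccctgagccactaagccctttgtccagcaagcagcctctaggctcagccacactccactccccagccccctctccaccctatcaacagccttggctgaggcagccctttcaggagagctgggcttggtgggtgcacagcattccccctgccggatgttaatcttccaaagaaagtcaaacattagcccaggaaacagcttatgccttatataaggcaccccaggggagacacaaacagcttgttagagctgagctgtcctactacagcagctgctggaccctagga
Slc22a19 (chr19:7711261-7711560, minus strand): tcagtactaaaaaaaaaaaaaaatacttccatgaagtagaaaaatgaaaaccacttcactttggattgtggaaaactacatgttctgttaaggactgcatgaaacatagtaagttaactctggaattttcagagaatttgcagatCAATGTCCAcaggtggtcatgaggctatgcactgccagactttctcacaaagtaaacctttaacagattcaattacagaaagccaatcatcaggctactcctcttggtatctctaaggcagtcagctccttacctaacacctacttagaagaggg
Slc22a30 (chr19:8405056-8405355, minus strand): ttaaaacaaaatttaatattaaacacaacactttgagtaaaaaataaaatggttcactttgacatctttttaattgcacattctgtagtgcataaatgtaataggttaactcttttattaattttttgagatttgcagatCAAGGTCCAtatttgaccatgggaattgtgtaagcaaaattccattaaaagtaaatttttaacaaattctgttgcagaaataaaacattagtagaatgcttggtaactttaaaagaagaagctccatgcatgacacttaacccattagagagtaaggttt

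RefSeq promoters were found for 7 of the 9 genes, and not for Slc22a7 and Slc47a1. CAAAGTCCA with at most 1 mismatch, searched on both strands, was found in Slc22a19 as CAATGTCCA and in Slc22a30 as CAAGGTCCA, and in 8.47% of all 32851 promoters in the table. The windows of the other 5 genes did not hold these letters. In pairwise global alignments of the 7 promoters, Slc22a19 and Slc22a30 shared 207 identical bases, the most of 21 pairs, and the other pairs shared 167 to 187. Such matches describe letters in the window and say nothing of whether a factor binds there.

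Total counts ranged from 9878776 to 12921925 per library, and 49.5% to 61.5% of them fell on mitochondrially encoded genes. Levels are given in CPM, that is counts scaled by library size and TMM factor, and 3 counts, the limit that a count of 0 allows, amount to 0.221 to 0.323 CPM. Such limits cover counting error only. The targeted gene, Zbp1, had 94 and 125 counts in the WT libraries, against 18 in ZBP1-KO 1 and 0 in ZBP1-KO 2, and the files do not show which exons these fell on. In the edgeR quasi-likelihood test over 14908 genes, 2 were called at an adjusted p under 0.05, 0.0134% of those tested, and both (Cfd and Lars2, named after their values were seen) were higher in ZBP1-KO. Labels name the tissue as kidney, and all 15 genes of the proximal tubule list were tested, with the phosphate transporter Slc34a1 at 529 to 1032 CPM and the endocytic receptor Lrp2 at 262 to 337 CPM. Xist was at 321 to 512 CPM in all libraries, and the Y-linked Uty, Kdm5d and Eif2s3y had 0 counts in all of them, while Ddx3y had 6 counts in WT 1 and 0 in the others. This is the pattern of female tissue apart from the few Ddx3y counts.

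Per kb of exon, the 9 genes covered a wide range of levels. Slc22a18, an imprinted gene whose transport substrate is not established, had the highest mean level, 168 CPM per kb, and its lowest library (151) lay above the highest library of any other member. Slc22a7 (OAT2) followed with 92.5 CPM per kb, Slc47a1 (MATE1) with 80.5 and Slc22a12 (URAT1) with 63.5. Slc22a8 (OAT3) had a mean of 38.3 CPM per kb, Slc22a2 23.2, Slc22a6 12.6, Slc22a19 (OAT5) 11.3 and Slc22a30 1.40. The ranges over the 4 libraries overlapped between the neighbours Slc22a7 and Slc47a1, between Slc47a1 and Slc22a12, and between Slc22a6 and Slc22a19, so the order within these pairs is not settled. The other neighbours in this order did not overlap, by the least margin for Slc22a8, at 27.5 CPM per kb in its lowest library, above Slc22a2, at 26.8 in its highest. Exon lengths join all annotated isoforms, so that levels per kb of genes with rarely used long exons are lowered. For Slc22a19 the joined exons span 5431 bases and the longest protein-coding transcript 1998 bases. Its place in the order therefore depends on the length used and is not settled.

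**Figure D1:**
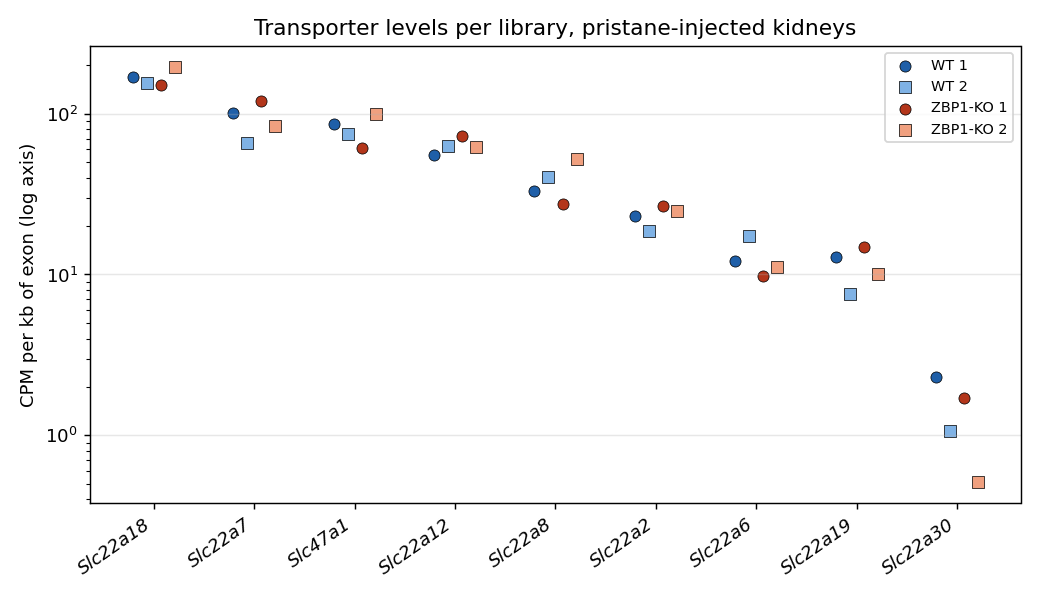
Level of each transporter in CPM per kb of exon (log axis), with 1 point per library (circles replicate 1, squares replicate 2, blue WT, red ZBP1-KO). Slc22a18 lies highest, with 151 to 196 CPM per kb, and Slc22a30 lowest, with 0.512 to 2.32. The colours separate only for Slc22a2 and Slc22a6, where the groups did not overlap for 32.3% of all tested genes.

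Basolateral uptake of anions rests on Slc22a6 and Slc22a8, which exchange drugs and metabolites against dicarboxylates. Slc22a6 (chromosome 19, 8618039 to 8628299, plus strand) measured 48.6 and 68.7 CPM in the WT libraries, against 39.2 and 44.6 CPM in ZBP1-KO. Both ZBP1-KO libraries lay below both WT libraries, although the gap between the groups, from 44.6 to 48.6 CPM, was smaller than the difference between the WT replicates. WT averaged 58.6 ± 14.2 CPM and ZBP1-KO 41.9 ± 3.85 CPM (SD, n = 2 per genotype). The log2 fold change, ZBP1-KO over WT, was −0.49 ± 0.22 (SE), with a 95% interval of −0.97 to −0.0053. Slc22a6 was the only member with an unadjusted p under 0.05, which 3.88% of all tested genes had, and its adjusted p was 0.999 in edgeR. Without WT 2 the log2 fold change was −0.22, and without WT 1 it was −0.72.

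Slc22a8 (chromosome 19, 8591254 to 8611835, plus strand) measured 129 and 158 CPM in the WT libraries, against 107 and 205 CPM in ZBP1-KO. The ZBP1-KO libraries held both the lowest and the highest value, so that the groups overlapped. The log2 fold change was 0.12 ± 0.26 (SE), with a 95% interval of −0.45 to 0.70 and an adjusted p of 0.999 in edgeR. Its sign rested on the libraries used, with 0.51 without ZBP1-KO 1 and −0.42 without ZBP1-KO 2. Slc22a6, next to it on the chromosome, had its highest value in WT 2 and not in ZBP1-KO 2.

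Slc22a7 (chromosome 17, 46432183 to 46438457, minus strand), an anion transporter of the basolateral or apical membrane depending on species, measured 212 and 139 CPM in the WT libraries, against 250 and 177 CPM in ZBP1-KO. The groups overlapped, and in each genotype 1 library was well above the other, by 1.53-fold in WT and 1.41-fold in ZBP1-KO. In edgeR the log2 fold change was 0.29 ± 0.24 (SE), with a 95% interval of −0.23 to 0.80 and an adjusted p of 0.999. Without WT 2 or without ZBP1-KO 1 it was close to 0, at 0.0067 and 0.010, and without WT 1 it was 0.62.

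Cations enter from the blood through Slc22a2 and leave into the urine through Slc47a1, an apical exchanger of protons against organic cations. Slc22a2 (chromosome 17, 12584132 to 12628488, plus strand) measured 56.9 and 46.0 CPM in the WT libraries, against 66.4 and 61.4 CPM in ZBP1-KO. Both ZBP1-KO libraries lay above both WT libraries. WT averaged 51.5 ± 7.73 CPM and ZBP1-KO 63.9 ± 3.56 CPM (SD, n = 2 per genotype). The log2 fold change was 0.31 ± 0.20 (SE), with a 95% interval of −0.12 to 0.75 and an adjusted p of 0.999 in edgeR. It kept its sign with each library left out, between 0.16 and 0.47.

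Slc47a1 (chromosome 11, 61343401 to 61378345, minus strand) measured 292 and 254 CPM in the WT libraries, against 206 and 338 CPM in ZBP1-KO. As with Slc22a8, ZBP1-KO 1 was the lowest library and ZBP1-KO 2 the highest. In edgeR the log2 fold change was −0.0057 ± 0.23 (SE), with a 95% interval of −0.51 to 0.50 and an adjusted p of 0.999. It was 0.30 without ZBP1-KO 1 and −0.41 without ZBP1-KO 2. Its relative Slc47a2 (MATE2) had 15 counts in each WT library, against 2 and 6 in ZBP1-KO, with a log2 fold change of −1.67 ± 1.38 (SE), not called. Per kb of exon Slc47a2 was at 0.0609 to 0.530 CPM, where Slc47a1 was at 60.9 to 99.9 CPM.

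On the apical membrane, Slc22a12 recovers urate and Slc22a19 exchanges anions such as sulfated steroids. Slc22a12 (chromosome 19, 6535845 to 6543032, minus strand) measured 126 and 143 CPM in the WT libraries, against 165 and 141 CPM in ZBP1-KO. The groups overlapped, and it was among the steadiest members, with a highest library 1.31 times the lowest. The log2 fold change was 0.19 ± 0.18 (SE), with a 95% interval of −0.22 to 0.59 and an adjusted p of 0.999 in edgeR. Exons of Nrxn2 on the opposite strand cover 30.1% of its exon bases, and the counting setting for strand was not given in the sources used here. Nrxn2 itself had 29 to 74 counts, against 1305 to 2240 for Slc22a12.

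Slc22a19 (chromosome 19, 7673061 to 7711310, minus strand) measured 69.8 and 40.8 CPM in the WT libraries, against 80.2 and 55.0 CPM in ZBP1-KO. The groups overlapped, and the replicates differed 1.71-fold in WT and 1.46-fold in ZBP1-KO. In edgeR the log2 fold change was 0.29 ± 0.27 (SE), with a 95% interval of −0.29 to 0.88 and an adjusted p of 0.999. Its sign changed without WT 2 (−0.050) and without ZBP1-KO 1 (−0.014).

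Slc22a18 and Slc22a30 have no established substrate in kidney. Slc22a18 (chromosome 7, 143473736 to 143499334, plus strand) measured 288 and 262 CPM in the WT libraries, against 257 and 332 CPM in ZBP1-KO. The ZBP1-KO libraries again held both extremes. The log2 fold change was 0.099 ± 0.19 (SE), with a 95% interval of −0.32 to 0.52 and an adjusted p of 0.999 in edgeR. Without ZBP1-KO 2 it was −0.11.

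Slc22a30 (chromosome 19, 8335371 to 8405111, minus strand) was the scarcest member, with 97 and 42 counts in the WT libraries, against 78 and 16 in ZBP1-KO. These corresponded to 7.80 and 3.59 CPM in the WT libraries, against 5.75 and 1.72 CPM in ZBP1-KO. The groups overlapped, and the replicates differed 2.17-fold in WT and 3.34-fold in ZBP1-KO. In edgeR the log2 fold change was −0.59 ± 0.65 (SE), with a 95% interval of −2.02 to 0.84 and an adjusted p of 0.999. Without ZBP1-KO 1 it was −1.73 and without WT 1 it was 0.062. Of the 100-base windows of its longest transcript, 24.3% also occur in transcripts of Slc22a28 or Slc22a29, so its counts of uniquely mapped pairs are uncertain. The corresponding share was 2.43% for Slc22a2, 0.158% for Slc22a19, and 0 for the other 6 members.

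**Figure D2:**
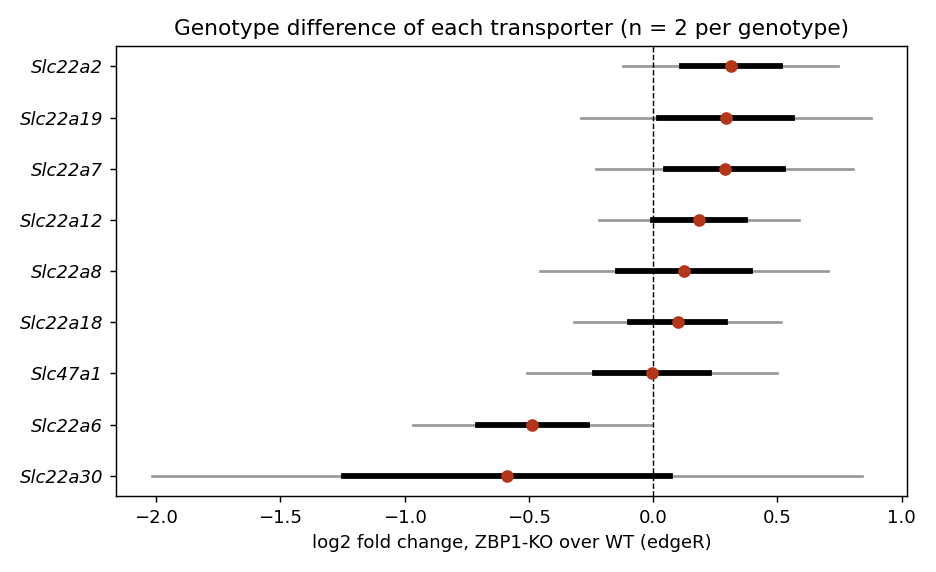
Log2 fold change of each transporter, ZBP1-KO over WT, from edgeR (points), with the SE (thick black lines) and the 95% interval (thin grey lines). The intervals of 8 genes include 0, and that of Slc22a6, −0.97 to −0.0053, ends just below it.

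Over the list, the edgeR quasi-likelihood test called 0 of 9 transporters, where 0.0134% of all genes were called. Of the 9, 1 (Slc22a6) was lower and 0 higher at unadjusted p values under 0.05, and the exact test of edgeR and the Wald test of DESeq2 also called 0. The groups did not overlap for 2 of the 9 genes, Slc22a2 and Slc22a6, whereas they did not overlap for 32.3% of all tested genes. The median log2 fold change was 0.12, with 6 genes above 0 and 3 below, and the median over all genes was −0.0061. For any single gene, the smallest two-sided p that exact permutation of 2 against 2 libraries allows is 0.333. In bulk tissue, fewer tubule cells and less RNA per cell cannot be told apart.

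The members followed unlike profiles over the 4 libraries. Slc22a7 and Slc22a19 had nearly the same one, in the descending order ZBP1-KO 1, WT 1, ZBP1-KO 2, WT 2. The distance between their log2 CPM profiles, each centred on its mean over the libraries, was 0.119, the smallest of all pairs of members. The chromosomal neighbours Slc22a6 and Slc22a8 were 0.757 apart on this measure, and Slc22a19 and Slc22a30 1.31 apart. The descending order of Slc22a7 and Slc22a19 was seen in 4.57% of all tested genes. In the other lists it was seen in Slc12a1 and Kcnj1 of 7 loop and distal genes, and in Atp11a, Lcn2 and Abcc1. Of the tested genes listed as sex-biased in kidney, 1 of 3 male-biased and 0 of 4 female-biased genes followed it. The 1 gene was Kap, an abundant androgen-regulated gene of the proximal tubule. Kap measured 8821 and 5565 CPM in the WT libraries, against 9402 and 7028 CPM in ZBP1-KO. Of the other male-biased genes, Slco1a1 had 0 counts in every library, Slc7a13 0 to 12, Acsm3 0 to 3 and Cyp4a12a 1 to 21. Odc1 was at 61.4 and 61.6 CPM in the WT libraries, against 37.7 and 47.6 CPM in ZBP1-KO, and was not called.

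Slc22a8, Slc22a18 and Slc47a1 shared another profile, with ZBP1-KO 1 lowest and ZBP1-KO 2 highest. In all tested genes this combination was seen in 10.7%. Of the 15 genes of the proximal tubule list, 11 were lowest in ZBP1-KO 1, where 27.7% of all genes were. Their summed level was 4086 and 3993 CPM in WT, 3186 CPM in ZBP1-KO 1 and 4256 CPM in ZBP1-KO 2. The gap was wider for genes of the early proximal tubule. Their summed level was 86.9 CPM in ZBP1-KO 1 against 168 to 246 CPM in the other libraries. Slc5a2, Slc6a19, Slc7a7 and Slc7a8 are in both lists, so these are not separate observations. The glucose transporter Slc5a2 measured 8.48 CPM in ZBP1-KO 1 and 33.9 to 45.0 CPM in the others, and the amino acid transporter Slc6a19 had 136 counts against 262 to 518. Genes of the late proximal tubule summed to 3131 and 2825 CPM in the WT libraries, against 2535 and 2560 CPM in ZBP1-KO. Napsa made up 2246 to 2839 CPM of this. Of the 4 tested genes of that list, 2 (Napsa and Cyp7b1) lay lower in both ZBP1-KO libraries, where 16.3% of all tested genes did. Genes of the loop and distal tubule summed to 2011 CPM in ZBP1-KO 1 and 1641 to 1705 CPM in the others. The summed level of the injury list was 693 CPM in ZBP1-KO 1 and 579 to 696 CPM in the others, of which Spp1 made up 443 to 568 CPM. Of the 4 tested injury genes, 2 (Lcn2 and Vcam1) were highest in ZBP1-KO 1, where 26.5% of all tested genes were. Lcn2 measured 38.1 CPM there against 12.6 to 34.3 CPM, and Vcam1 31.2 CPM against 19.9 to 28.2 CPM. Spp1 was highest in WT 1, and Clu, at 91.7 CPM, in ZBP1-KO 2. Havcr1 had at most 0.428 CPM in any library.

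**Figure D3:**
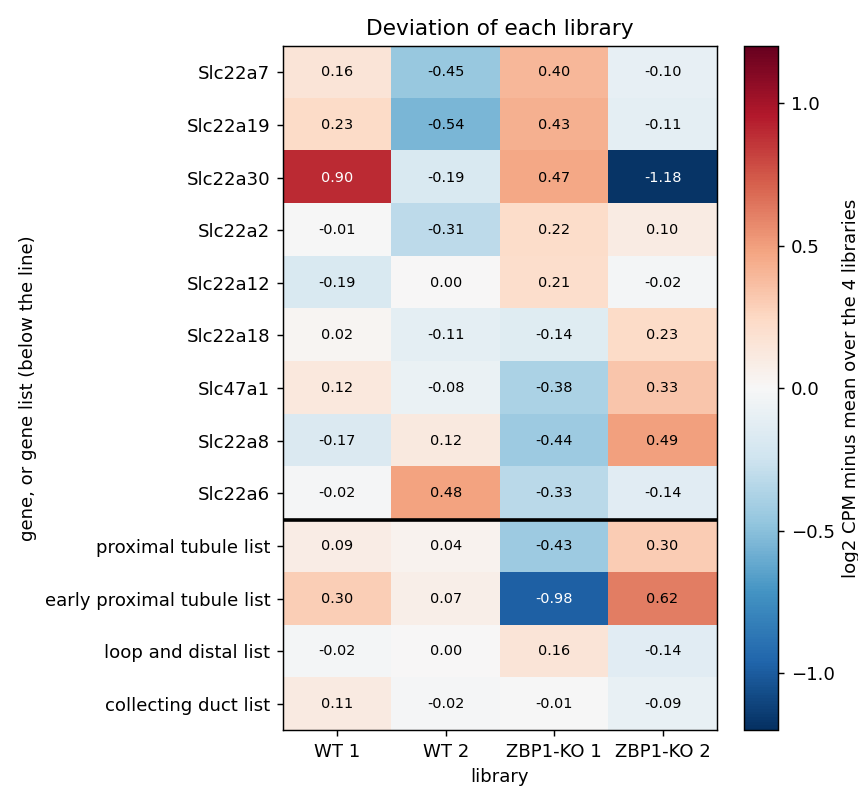
Deviation of each library (columns) from the mean over the 4 libraries, in log2 CPM, for the 9 transporters (above the line) and the mean of 4 marker lists (below it). ZBP1-KO 1 is at −0.98 for the early proximal tubule list and −0.44 for Slc22a8, but at 0.40 for Slc22a7 and 0.43 for Slc22a19.

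To set the transporters against the tubule segment that carries them, each was also expressed per library as log2 CPM minus the mean log2 CPM of the proximal tubule list. On this scale Slc47a1 was 1.52 and 1.36 in WT and 1.54 and 1.51 in ZBP1-KO. Its range over the libraries was 0.18, compared with 0.71 on the log2 CPM scale. The range of Slc22a8 was 0.45 on this scale and 0.93 on the log2 CPM scale. For all other members the ranges were larger on this scale than on the log2 CPM scale. They were 1.33 against 0.85 for Slc22a7, 1.45 against 0.97 for Slc22a19 and 0.45 against 0.37 for Slc22a18. For Slc22a2 they were 1.01 against 0.53, and for Slc22a12 0.97 against 0.39. Those of Slc22a6 were 0.88 against 0.81, and those of Slc22a30 2.38 against 2.07. Slc22a7 was 1.06 and 0.49 in WT and 1.82 and 0.58 in ZBP1-KO. The median difference between genotypes on this scale was 0.22, with 7 of 9 genes above 0, and Slc22a6 kept a value below 0 (−0.33). The part of the lower proximal tubule list in ZBP1-KO 1 in these values was not tested.

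Other cell types were followed by marker lists. Of all tested genes, 16.0% lay higher and 16.3% lower in both ZBP1-KO libraries than in both WT libraries. This is the background for the counts of such genes that follow. The summed level of the fat list was 66.3 and 90.1 CPM in the WT libraries, against 149 and 118 CPM in ZBP1-KO. Fabp4 made up most of this, with 62.8 and 80.5 CPM in the WT libraries, against 115 and 88.8 CPM in ZBP1-KO. Scarcer genes of the list differed more, such as Cidec, at 1.53 and 1.97 CPM in the WT libraries, against 8.70 and 6.68 CPM in ZBP1-KO. All 5 tested genes of the fat list had an unadjusted p under 0.05 in edgeR with higher values in ZBP1-KO, where 284 of all 14908 tested genes did. Lep was at 0 counts in every library. The 8 immediate-early genes summed to 440 and 166 CPM in the WT libraries, against 91.7 and 102 CPM in ZBP1-KO, with 8 of 8 lower in both ZBP1-KO libraries. Leukocyte genes summed to 180 and 120 CPM in the WT libraries, against 167 and 167 CPM in ZBP1-KO. Csf1r made up 148 and 102 CPM of this in the WT libraries, against 128 and 131 CPM in ZBP1-KO. Of the 8 tested leukocyte genes, 4 lay higher in both ZBP1-KO libraries. The mean log2 CPM of the list, centred over the libraries, was −0.17 and −0.49 in WT, against 0.19 and 0.46 in ZBP1-KO. The liver list, whose gene Ahsg had 0 counts throughout, summed to 12.5 to 21.2 CPM, with 1 of 4 tested genes, Alb, higher in both ZBP1-KO libraries at 2.58 and 2.80 CPM. Podocyte genes summed to 102 and 104 CPM in the WT libraries, against 129 and 150 CPM in ZBP1-KO, with 3 of 5 higher in both ZBP1-KO libraries. Hemoglobin and other red cell genes followed no genotype, with 819 and 818 CPM in WT 2 and ZBP1-KO 1 and 2549 and 2121 CPM in WT 1 and ZBP1-KO 2. Collecting duct genes summed to 1409 and 1506 CPM in WT 1 and WT 2 and to 1214 and 1002 CPM in ZBP1-KO 1 and ZBP1-KO 2, with 3 of 8 lower and 1 higher in both ZBP1-KO libraries. Among them the water channel Aqp2 had a log2 fold change of −0.64 ± 0.20 (SE) and Aqp3 of −0.58 ± 0.23 (SE), both with an unadjusted p under 0.05 and not called. Of the loop and distal genes, 1 of 7 (Pvalb) lay lower and 1 (Calb1) higher in both ZBP1-KO libraries. The fat, immediate-early, leukocyte, podocyte, endothelium, collecting duct, loop and distal, late proximal tubule and liver lists each held genes whose groups did not overlap. The same held for Slc22a2 and Slc22a6, and the part of these lists in the values of the transporters was not tested.

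Genes that work with the 9 transporters were examined in 5 lists of 53 genes, of which 48 were tested. By the edgeR quasi-likelihood test 0 were called, where 0.0134% of all genes were, and the exact test and DESeq2 also called 0. At unadjusted p values under 0.05, 2 genes (Slc22a29 and Ppara) were lower and 0 higher. The median log2 fold change of the 48 was −0.087, with 14 genes above 0 and 34 below. The groups did not overlap for 16 of the 48 genes, 33.3%, where 32.3% of all genes did not.

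Among the other genes of the Slc22 family, 14 of 17 were tested, and their median log2 fold change was −0.092. Slc22a29, a neighbour of Slc22a30 on chromosome 19, measured 40.8 and 42.3 CPM in the WT libraries, against 23.7 and 33.7 CPM in ZBP1-KO. Its log2 fold change was −0.54 ± 0.23 (SE). It shares transcript sequence with Slc22a30, so its counts of uniquely mapped pairs may be affected too, by an amount not measured here. Slc22a21, a carnitine transporter, measured 11.4 and 7.01 CPM in the WT libraries, against 5.75 and 3.55 CPM in ZBP1-KO, with a log2 fold change of −0.98 ± 0.46 (SE). Slc22a23, without a known substrate, had 176 and 152 counts in the WT libraries, against 204 and 258 in ZBP1-KO, with a log2 fold change of 0.65 ± 0.32 (SE).

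Apical efflux and exchange genes had a median log2 fold change of 0.092 over 8 tested genes. Slc17a1, a phosphate and urate transporter, measured 59.4 and 53.5 CPM in the WT libraries, against 76.2 and 72.5 CPM in ZBP1-KO, with a log2 fold change of 0.40 ± 0.19 (SE). The multidrug pump Abcb1a measured 1.29 and 0.941 CPM in the WT libraries, against 2.06 and 3.23 CPM in ZBP1-KO, with a log2 fold change of 1.24 ± 0.94 (SE). The anion pump Abcc2 measured 24.4 and 24.7 CPM in the WT libraries, against 9.66 and 23.7 CPM in ZBP1-KO, so that ZBP1-KO 2 lay close to WT, and its log2 fold change was −0.57 ± 0.36 (SE). Of the Slco and Abcc genes, 11 of 12 were tested with a median log2 fold change of −0.10, and only Abcc6 did not overlap, with 14.1 and 13.0 CPM in the WT libraries, against 11.6 and 7.54 CPM in ZBP1-KO.

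Urate and dicarboxylate genes, which supply the exchange partners of the anion transporters or share their substrates, had a median log2 fold change of −0.11 over 6 tested genes. All 6 were lowest in ZBP1-KO 1, where 27.7% of all tested genes were. Of these, 3 (Slc13a3, Slc5a8 and Slc16a9) were highest in ZBP1-KO 2. Slc5a12 of this list is also in the early proximal tubule list, and Slc16a9 in the late one. All 6 log2 fold changes were below 0, where the median over all genes was −0.0061, and the groups overlapped for 5 of the 6. The urate transporter Slc2a9 measured 3.46 and 4.79 CPM in the WT libraries, against 1.40 and 2.48 CPM in ZBP1-KO, with a log2 fold change of −1.10 ± 0.71 (SE). The basolateral dicarboxylate carrier Slc13a3 overlapped between genotypes, with 125 and 167 CPM in the WT libraries, against 111 and 175 CPM in ZBP1-KO. Urate oxidase (Uox) had 0 counts in every library.

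Regulators and scaffold proteins had a median log2 fold change of −0.17 over 9 tested genes, and 4 of the 9 lay lower in both ZBP1-KO libraries, where 16.3% of all tested genes did. The nuclear receptor Ppara measured 2.98 and 5.39 CPM in the WT libraries, against 0.737 and 1.08 CPM in ZBP1-KO, with a log2 fold change of −2.20 ± 0.82 (SE). Hnf4a measured 147 and 146 CPM in the WT libraries, against 126 and 120 CPM in ZBP1-KO, with a log2 fold change of −0.26 ± 0.18 (SE). Hnf4a encodes the factor whose motif letters are marked in the promoters above, and the adjusted p of both genes was 0.999 in edgeR.

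**Figure D4:**
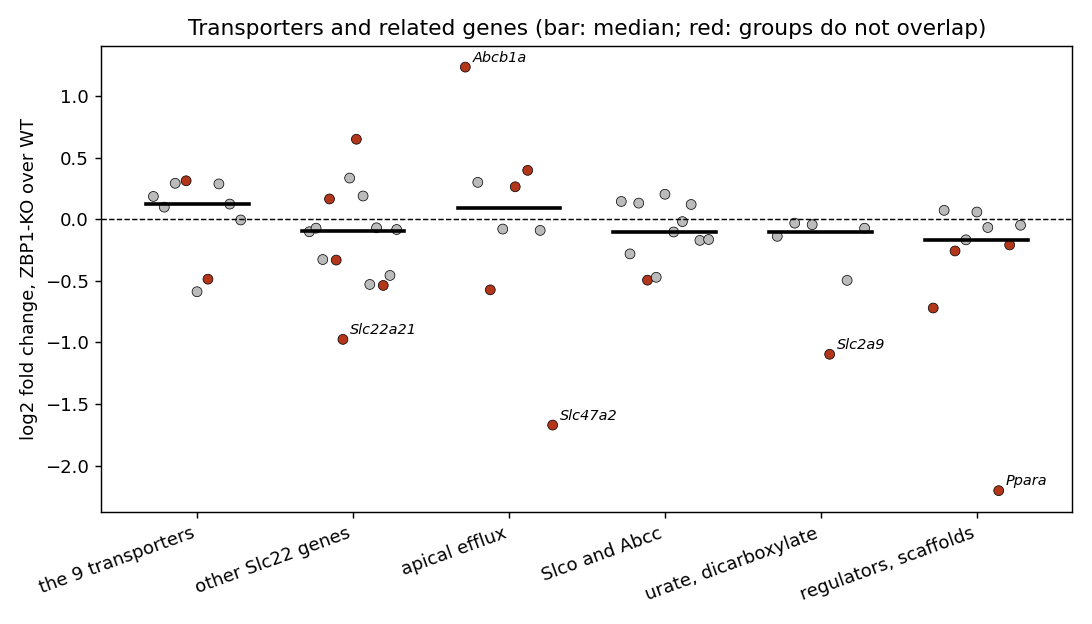
Log2 fold change, ZBP1-KO over WT, of each tested transporter and related gene by list, with the median as a bar and genes whose groups do not overlap in red. The medians run from −0.17 to 0.12, and the genes farthest from 0 are Ppara at −2.20, with 10 to 63 counts, and Slc47a2 at −1.67, with 2 to 15 counts.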

How the data were processed

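Kidney RNA of 4 samples, 2 WT and 2 ZBP1-KO, was analysed, with groups and replicate numbers taken from the sample titles. The authors prepared poly(A) libraries, trimmed reads with Trimmomatic, aligned read pairs with HISAT2 to mm10 and used featureCounts to count uniquely mapped pairs. The deposited files hold these raw counts per Ensembl gene. Program versions, annotation release and the strand setting are not given in the sources used here. Without molecular identifiers, duplicates count as reads. The labels do not say whether the samples are separate animals, so p-values measure the spread between these samples.

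IDs were matched to GENCODE M21 (54495 of 54532). Genes were filtered with filterByExpr (minimum count 10, total 15) and tested in edgeR 4.0.16 (R 4.3.3) with TMM and the two-sided quasi-likelihood F test, adjusted by Benjamini-Hochberg over 14908 genes and called under 0.05. The SE is the absolute log2 fold change over the square root of F, and 95% intervals use the t distribution with the fit's degrees of freedom. Fold changes use a prior count of 0.125, and log2 CPM a prior count of 2. Alternatives were RLE and upper quartile factors, no mitochondrial genes, no filter or a mean of 1 CPM, a replicate block, the exact test, DESeq2 1.42.0, the proximal tubule scale and each library left out. The members, lists and motifs were chosen with earlier results of these data known. Of the related lists, up to 3 genes were named, those that changed most among genes averaging at least 1 CPM whose groups do not overlap. Others were named after their values were seen. Results for some genes are not reported here.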

Additional observations from a re-analysis of the deposited data

How the results depend on the processing

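Calls among the 9 transporters and the 48 tested related genes (47 with a mean of at least 1 CPM, 49 with all genes of at least 1 count) stayed at 0 under every alternative tried. The number of called genes over the whole table, 2, became 4 without mitochondrially encoded genes, 41 with all genes of at least 1 count, 14 with the exact test and 9 with DESeq2. With each library left out it was 0 (without WT 1), 20 (without WT 2), 8 (without ZBP1-KO 1) and 37 (without ZBP1-KO 2), and the cause was not tested. A replicate block gave 11 called genes and changed no call of a transporter. Over all tested genes, the deviations of WT 1 and ZBP1-KO 1 from their genotype means had a correlation of 0.00399. This value cannot show whether samples of the same number shared a batch that affects part of the genes, and the labels do not say. The median log2 fold change of the transporters, 0.12, was 0.089 with the block, 0.22 on the proximal tubule scale and 0.0037 to 0.092 with each library left out. Of 117 values of single transporters under alternatives, none was called, and 9 changed sign with a library left out: Slc22a18 without ZBP1-KO 2 (−0.11), Slc22a19 without WT 2 (−0.050) and ZBP1-KO 1 (−0.014), Slc22a30 without WT 1 (0.062) and ZBP1-KO 2 (0.0037), Slc22a8 without WT 1 (−0.023) and ZBP1-KO 2 (−0.42), and Slc47a1 without WT 1 (0.092) and ZBP1-KO 1 (0.30). With each library left out, the values ranged from −0.11 to 0.27 for Slc22a18, −0.050 to 0.72 for Slc22a19, −1.73 to 0.062 for Slc22a30, −0.42 to 0.51 for Slc22a8 and −0.41 to 0.30 for Slc47a1. In those fits the lone library of a genotype is assumed to vary like the others. The sign of Slc47a1 also changed on the proximal tubule scale (0.086), which has no test. No scaling moved the median of all genes by over 0.1.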

Other observations

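The profile of the 9 transporters as a whole was nearly flat, since members of opposite profile cancelled. The mean over members of log2 CPM, centred over the libraries, was 0.12 and −0.12 in WT and 0.048 and −0.044 in ZBP1-KO. Of the tested genes outside the list with a mean of at least 20 CPM, those nearest to it by Euclidean distance over the 4 libraries were Fhl1 (distance 0.025), Strap (0.033), Smo (0.033), Afg3l2 (0.036) and Dgcr2 (0.037). With 4 libraries many genes lie this close, and the values are a description. Slc22a30, the scarcest member, deviated most of the 9 in WT 1 (0.90) and ZBP1-KO 2 (−1.18). The mean over members in these libraries therefore leans on Slc22a30, and so does the choice of the nearest genes. The other female-biased genes of the kidney list besides Slc22a29 overlapped between genotypes. Cyp4a14, an omega-hydroxylase of fatty acids, measured 73.6 and 27.5 CPM in the WT libraries, against 26.0 and 71.8 CPM in ZBP1-KO, and the prolactin receptor Prlr 77.7 and 78.5 CPM in the WT libraries, against 92.8 and 75.4 CPM in ZBP1-KO.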
